A study of Schizosaccharomyces pombe with 9 samples.

Results

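The rows described are assembled transcripts: loci that a transcript assembler built from the reads and that the deposited tables list under identifiers starting with MSTRG, the default prefix of StringTie, in place of a systematic gene name. All rows with such an identifier were taken, whatever their values, which gave 76 of the 5212 rows; the other 5136 carry systematic names of annotated fission yeast genes. RNA enriched with oligo(dT) was sequenced from whole cells of Schizosaccharomyces pombe in 9 libraries, 3 per genotype. The genotypes were wild type (WT), htb1-E112K (E112K), which carries a substitution in the gene of histone H2B, and htb1-E112K clr6-1 (E112K clr6-1), which carries the same substitution together with an allele of the histone deacetylase gene clr6. The labels give neither the growth temperature nor any other marker or background allele, and the 9 libraries hold no strain with clr6-1 alone. By its labels E112K clr6-1 differs from WT by both alleles and from E112K by clr6-1. It also differed from both in the marker gene ura4, which had counts in its libraries alone, so a difference from E112K cannot be put to clr6-1 by itself. The comparisons against WT share the WT libraries.

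An assembler joins overlapping aligned reads into transcripts and gives a locus of its own to whatever it does not assign to an annotated gene. Such loci can be noncoding RNAs, extended or antisense transcripts of a known gene, or copies of repeated genes that the annotation places elsewhere. Histone H2B forms part of the nucleosome core. Clr6 is a class I histone deacetylase of fission yeast, and its complexes are known for keeping antisense and cryptic transcription within genes low.

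The name of the class was checked against the tables and the RefSeq annotation of assembly ASM294v3, which served for names alone. Of the 5136 other rows 5109 matched this annotation, 5105 of them as protein-coding genes. None of its 7133 lncRNA genes and none of its ribosomal RNA genes was listed as a row. An assembled transcript can therefore coincide with an annotated noncoding RNA, ribosomal RNA included. The files give no position, strand or sequence for the 76 loci and do not name the genome build, so overlaps with annotated genes could not be examined. The sources used here do not say whether counting used strand, and reads of overlapping, antisense or near-identical loci cannot be told apart.

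The deposited tables say little about these loci. A gene symbol was given for 17 of the 76, a description for 19 and gene ontology (GO) text for 11, and 54 had none of these. GO text stood beside 14.5% of the assembled transcripts and 98.8% of the annotated rows. The 17 symbols were of 10 different kinds. Of these, 7 symbols, covering 12 assembled transcripts, were also carried by an annotated row. A shared symbol does not place a locus at that gene, because no positions are given. The other symbols, SPBC460.01c, ART2 and wtf33, covered 5 assembled transcripts and had no annotated row.

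Part of the GO text named functions foreign to a yeast cell. Of 83 different terms over the 11 loci, 37 were carried by no annotated row, and 10 of the 11 loci held at least one such term. These numbers do not count foreign functions, because general terms are among them. All such terms of MSTRG.2657 were general, for example organelle, cell part and transport, and MSTRG.5144 had binding. MSTRG.993 was listed under viral capsid, MSTRG.2682 under transport of virus in host, MSTRG.1765 under tissue regeneration, MSTRG.5875 under quorum sensing, and MSTRG.4825 under the bacterial-type flagellum. The descriptions also crossed names. The 5 loci with the symbol tlh1 were described by a protein that RefSeq assigns to tlh2, MSTRG.5728 had the symbol wtf33 and the description of a hypothetical wtf8 protein, and MSTRG.5761 had the symbol wtf16 and a description as Wtf37. For 3 loci the described protein came from another fungus. Symbols below are therefore given as the tables' labels, without assigning their function to the locus.

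Per length, the class was low. Its median FPKM, the authors' counts scaled by transcript length and library size, was 5.65 over the 9 libraries, against 47.7 for the annotated rows, and 72 of 76 lay below the annotated median. Mean FPKM was under 1 for 3 loci, from 1 to 10 for 51 and 10 or more for 22. In each library the median FPKM over the 76 loci was taken, and it averaged 2.47 ± 0.184 in WT, 4.90 ± 0.294 in E112K and 6.75 ± 0.474 in E112K clr6-1 (SD, n = 3). The same median over annotated rows stayed at 47.8, 47.0 and 46.8. With low counts came a wider spread. The median coefficient of variation between libraries of a group was 15.2%, 11.1% and 11.9% over all 76 assembled transcripts in WT, E112K and E112K clr6-1. It was 3.43%, 3.51% and 2.87% over the 5046 annotated rows that had enough counts to be tested. The assembled transcripts were not filtered in this way.

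As a share of all counts the class was small. It took 0.214%, 0.212% and 0.189% in the WT libraries, 0.203%, 0.194% and 0.211% in E112K, and 0.249%, 0.246% and 0.261% in E112K clr6-1. WT and E112K overlapped, at 0.205% ± 0.0136 and 0.203% ± 0.00856 (SD, n = 3), and the E112K clr6-1 libraries, at 0.252% ± 0.00816, lay above all others. A single locus, MSTRG.4822, held 41.6 to 43.5% of the class's counts in WT and 21.4 to 26.3% in the mutants. Without it the shares were 0.117% ± 0.00587 in WT, 0.157% ± 0.00425 in E112K and 0.192% ± 0.00308 in E112K clr6-1, and no library overlapped one of another genotype.

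**Figure D1:**
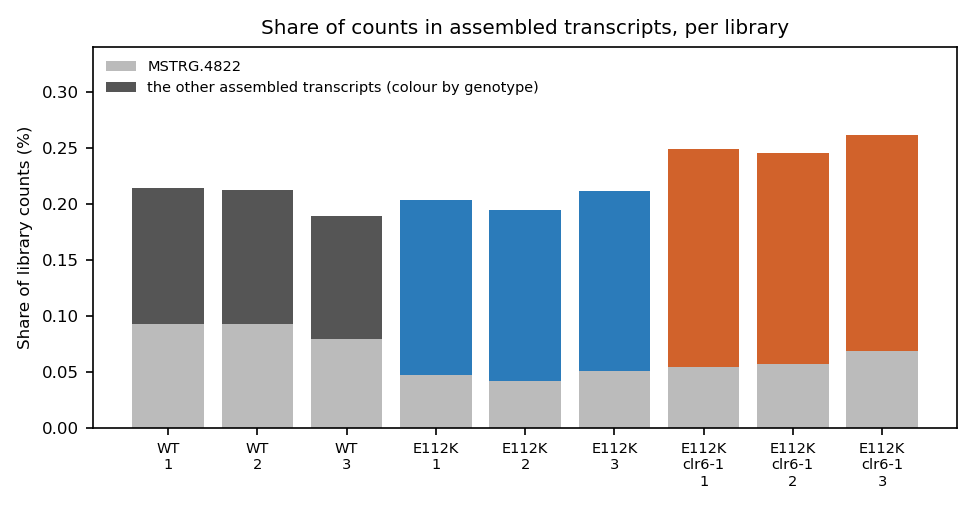
Share of each library's counts, in percent, that fell on the 76 assembled transcripts, with the part of MSTRG.4822 in light grey and the other loci coloured by genotype; bars start at 0 and each bar is 1 library. The coloured part is lowest in the 3 WT libraries and highest in the 3 E112K clr6-1 libraries, while the light grey part is highest in WT.

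Each locus was then tested between genotypes. The unit of level is the CPM, a count scaled by library size with TMM factors, and the test is edgeR's quasi-likelihood test fitted over all genes, with Benjamini-Hochberg adjustment over the 5119 rows that had enough counts. Of the 76 loci 73 were tested. The other loci, MSTRG.2181, MSTRG.4433 and MSTRG.5106, had at most 13 counts in any library. In E112K against WT 46 of 73 (63%) were called higher, where 37.6% of all tested genes were, and 7 (9.59%) were called lower, where 38.9% of all tested genes were. In E112K clr6-1 against WT 52 (71.2%) were higher and 9 (12.3%) lower, beside 41.7% and 42% of all tested genes. In E112K clr6-1 against E112K 33 (45.2%) were higher and 17 (23.3%) lower, beside 40.2% and 38.6%. Called in either direction were 53 (72.6%), 61 (83.6%) and 50 (68.5%) of 73, beside 76.5%, 83.7% and 78.8% of all genes. Libraries of the compared genotypes did not overlap for 53, 62 and 51 of 73, beside 78%, 84.8% and 80.5% of all genes. Entry through mutant reads can favour loci that are higher in a mutant. The class levels, calls and medians can therefore depend on how the class was formed, and that part was not tested. Loci that share a symbol, such as the 5 labelled tlh1, are counted separately here, though reads can be shared among them.

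Many of the changes exceeded 2-fold. At least 2-fold higher were 30 loci in E112K (41.1%, beside 7.17% of all genes) and 39 in E112K clr6-1 (53.4%, beside 10.1%), each against WT. Lower by at least the same factor were 2 (beside 2.11%) and 4 (beside 3.24%). Between the mutants the numbers were 16 higher (21.9%, beside 4.47%) and 7 lower (9.59%, beside 2.83%). The median log2 difference of the 73 loci was 0.79 for E112K and 1.27 for E112K clr6-1 against WT, and 0.07 between the mutants, where all genes had medians of -0.01, 0.00 and 0.01. The mean level was lowest in WT for 54 of the 76 loci (71.1%), and for 35.4% of the annotated rows with a count. In the authors' deposited table, at an FDR under 0.05 and at least 2-fold, 29 of 76 loci were higher in E112K and 39 in E112K clr6-1, where 6.83% and 9.67% of its rows were, and 2 and 4 were lower, where 2.19% and 3.43% were.

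Of the 17 with a symbol 12 were higher and 2 lower in E112K (beside 37.6% and 38.9% of all genes), and 14 higher and 2 lower in E112K clr6-1 (beside 41.7% and 42%), both against WT. Of the 56 tested without a symbol 34 were higher and 5 lower, and 38 higher and 7 lower. Between the mutants the loci with a symbol had 12 higher and 1 lower, with a median log2 difference of 0.56, and those without had 21 higher and 16 lower, with a median of -0.06, beside 40.2% higher and 38.6% lower of all genes. The difference between loci with and without a symbol was not tested.

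**Figure D2:**
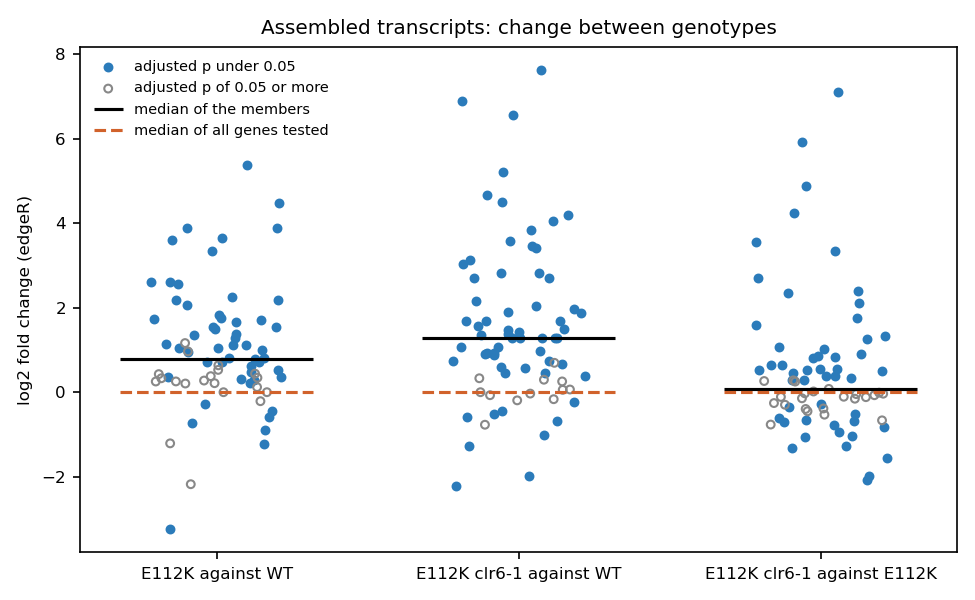
log2 fold change of each of the 73 tested assembled transcripts in the 3 comparisons; filled points passed an adjusted p of 0.05, open points did not, black bars are the medians of the loci and dashed bars those of all tested genes. The medians of the loci are 0.79, 1.27 and 0.07, and most filled points of the comparisons against WT lie above 0.

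The loci with the largest rises in E112K stood under 3 CPM in each WT library and were far above WT in E112K clr6-1 too. MSTRG.2657, labelled mfs2 after a predicted membrane transporter of the major facilitator family, stood at 1.56, 0.987 and 1.83 CPM in WT. It reached 60.1, 57.4 and 63.5 CPM in E112K and 56.2, 51.4 and 55.8 CPM in E112K clr6-1. The mutants lay far above every WT library, by 41.2-fold (log2 5.36, SE 0.11, adjusted p = 3.04e-13) and 37.2-fold (log2 5.22, SE 0.12, adjusted p = 3.4e-13). Between the mutants it differed by -0.15 on the log2 scale (adjusted p = 0.0559), with separate libraries. That difference passed under 5 alternatives, among them the fit of both mutants alone (adjusted p = 0.0303).

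MSTRG.2675, with no symbol, had 2.36, 2.14 and 2.55 CPM in WT, 57.7, 48.1 and 51.5 CPM in E112K, and 46.4, 39.4 and 42.2 CPM in E112K clr6-1. It rose 22.2-fold (SE 0.12 on the log2 scale, adjusted p = 1.84e-12) and 18.1-fold (adjusted p = 2.94e-12) over WT. MSTRG.33 had 1.41, 1.97 and 1.27 CPM in WT, 24.3, 21.3 and 22.8 CPM in E112K, and 22.5, 22.1 and 21.5 CPM in E112K clr6-1. Its mutant groups overlapped (log2 difference -0.05, adjusted p = 0.597), and both were above WT, by 14.7-fold (adjusted p = 1.64e-11) and 14.2-fold (adjusted p = 1.17e-11).

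In another set the rise was smaller in E112K clr6-1 than in E112K. MSTRG.2665 went from 1.66, 1.92 and 2.27 CPM in WT to 29.5, 27.0 and 29.9 CPM in E112K, and to 14.2, 12.7 and 14.3 CPM in E112K clr6-1. It was 14.8-fold above WT in E112K (adjusted p = 6.44e-12), and 7.06-fold above it in E112K clr6-1 (adjusted p = 2.2e-10), and fell by 1.07 on the log2 scale between the mutants (SE 0.08, adjusted p = 8.46e-08). All 3 groups were separate. MSTRG.2660 showed the same order, with means of 1.65 ± 0.245, 20.6 ± 2.05 and 10.7 ± 0.402 CPM (SD, n = 3), and fell by 0.95 between the mutants (adjusted p = 1.2e-06). MSTRG.2707 did too, at 1.68 ± 0.211, 8.05 ± 0.808 and 4.94 ± 1.03 CPM, with a fall of 0.69 between the mutants (adjusted p = 0.00145). A like order at a higher level was seen in MSTRG.3248, which had 113, 111 and 100.5 CPM in WT, 181, 194 and 192 CPM in E112K, and 153, 146 and 141 CPM in E112K clr6-1. It rose 1.75-fold in E112K (adjusted p = 5.03e-09) and fell by 0.36 from E112K to E112K clr6-1 (adjusted p = 8.44e-06).

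**Figure D3:**
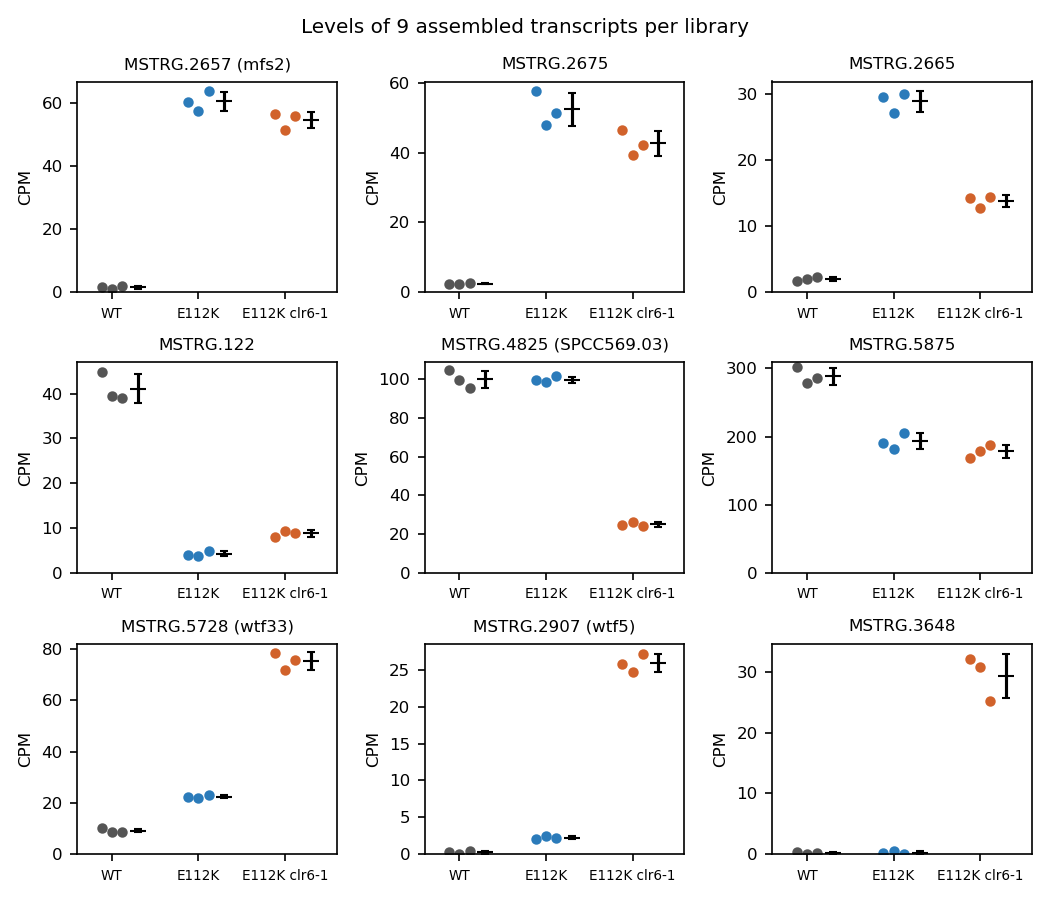
CPM of 9 assembled transcripts in each library (points, 3 per genotype) with the mean and SD beside them; each panel has its own linear axis. MSTRG.2657, MSTRG.2675 and MSTRG.2665 are near 0 in WT and high in E112K, MSTRG.122 is high in WT, MSTRG.4825 is low in E112K clr6-1, and MSTRG.2907 and MSTRG.3648 are high in E112K clr6-1.

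A different set stood near 0 in WT and E112K and was high in E112K clr6-1. MSTRG.3648 had 6, 0 and 2 counts in the WT libraries, 3, 8 and 0 in E112K, and 642, 541 and 433 in E112K clr6-1, or 32.1, 30.8 and 25.1 CPM there. E112K against WT did not pass (adjusted p = 0.649). The fitted rise in E112K clr6-1 was 7.62 on the log2 scale over WT (SE 0.34, adjusted p = 2.61e-10) and 7.10 over E112K (SE 0.33, adjusted p = 6.43e-10), and with so few counts below it the size depends on the fit. MSTRG.3654 behaved likewise, with 0, 6 and 0 counts in WT, 0, 0 and 9 in E112K and 183, 174 and 228 in E112K clr6-1 (log2 6.56 over WT, SE 0.56, adjusted p = 1.51e-07). The E112K clr6-1 library with the lowest count of MSTRG.3648 had the highest count of MSTRG.3654. Their sum, a pair chosen after its values were seen, was 825, 715 and 661 counts there, 40.1 ± 1.51 CPM (SD, n = 3).

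The wtf genes are a fission yeast family that includes meiotic drivers encoding spore-killing poisons and their antidotes, and 5 loci carried a wtf label. MSTRG.5728, labelled wtf33, had 9.9997, 8.72 and 8.69 CPM in WT, 22.3, 22.0 and 22.9 CPM in E112K, and 78.5, 71.8 and 75.9 CPM in E112K clr6-1. The groups were separate, and it rose 2.45-fold over WT in E112K (log2 1.29, SE 0.07, adjusted p = 4.26e-09), and 8.23-fold over WT in the E112K clr6-1 strain (log2 3.04, SE 0.07, adjusted p = 2.69e-13). The same order held for MSTRG.5761, labelled wtf16, at 16.3 ± 0.881, 23.5 ± 0.827 and 41.6 ± 2.32 CPM (SD, n = 3), which rose 1.44-fold (adjusted p = 1.37e-05) and 2.56-fold (adjusted p = 5.07e-10). MSTRG.2415, labelled wtf21, had 8.17 ± 0.609, 10.5 ± 0.684 and 26.4 ± 0.181 CPM and rose 1.28-fold (adjusted p = 0.00272) and 3.23-fold (adjusted p = 3.87e-10).

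The loci labelled wtf5 were the lowest of these in WT. MSTRG.2907 had 6, 0 and 6 counts in WT, 33, 42 and 42 in E112K, and 517, 435 and 469 in E112K clr6-1. It rose by 3.33 on the log2 scale in E112K (SE 0.39, adjusted p = 5.07e-06) and by 6.88 in E112K clr6-1 (SE 0.24, adjusted p = 2.25e-11), both over WT. MSTRG.2908 had at most 5 counts in any WT or E112K library and 74, 62 and 46 in E112K clr6-1, a rise of 4.23 over E112K on the log2 scale (adjusted p = 1.75e-06). Summed, the wtf5 loci stood at 0.34 ± 0.0906, 2.37 ± 0.234 and 29.2 ± 0.849 CPM (SD, n = 3).

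Annotated wtf rows of the same tables stand beside these values. The annotated wtf5 row (SPCC794.02) rose 1.71-fold in E112K and 3.55-fold in E112K clr6-1 over WT, the wtf21 row (SPCC1739.15) 1.43-fold and 3.27-fold, and the wtf16 row (SPCC1450.08c) 1.47-fold and 7.83-fold. The wtf8 row (SPCC306.10), a pseudogene in RefSeq, rose 3.99-fold in E112K clr6-1 and did not pass in E112K (adjusted p = 0.11). The wtf genes are similar in sequence, so reads can be shared between rows, and the split of counts between an assembled and an annotated row is uncertain.

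The tlh genes encode RecQ-type DNA helicases at the chromosome ends, where heterochromatin keeps them low, and 5 loci carried the label tlh1. MSTRG.5308 had 7.99, 6.80 and 5.92 CPM in WT, 14.5, 15.1 and 15.3 CPM in E112K, and 75.1, 75.2 and 78.3 CPM in E112K clr6-1. The groups were separate and tight, and it rose 2.16-fold (log2 1.11, SE 0.09, adjusted p = 1.92e-07) and 10.98-fold (log2 3.46, SE 0.08, adjusted p = 3.73e-13) over WT. MSTRG.5302 had 4.47, 7.51 and 4.60 CPM in WT, 19.6, 16.6 and 16.2 CPM in E112K, and 87.4, 89.9 and 98.5 CPM in E112K clr6-1. It rose 3.16-fold (adjusted p = 5.42e-07) and 16.7-fold (adjusted p = 8.78e-12). MSTRG.1765 had 5.26 ± 0.807, 6.79 ± 0.639 and 10.002 ± 1.51 CPM (SD, n = 3) and rose 1.89-fold in E112K clr6-1 (adjusted p = 6.89e-05). In E112K its libraries overlapped WT (1.29-fold, adjusted p = 0.0488), a call lost without WT replicate 2 or 3, E112K replicate 1 or 3, or E112K clr6-1 replicate 1 (adjusted p from 0.062 to 0.17).

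MSTRG.5309 and MSTRG.5310 have to be read together. MSTRG.5310 had 0 counts in 4 of the 9 libraries and up to 15.1 CPM in the others, with a 0 in each genotype, and it passed no comparison with all 9 libraries (adjusted p = 0.501 for E112K and 0.846 for E112K clr6-1 against WT). Without E112K replicate 1, its highest library, it passed as a fall from WT to E112K (adjusted p = 0.0367) and as a rise from E112K to E112K clr6-1 (adjusted p = 0.0242), both against the sign found with all libraries. MSTRG.5309 had 8.14, 13.9 and 7.42 CPM in WT beside 4.17, 0 and 3.16 CPM of MSTRG.5310, and 20.5, 35.9 and 38.5 CPM in E112K beside 15.1, 0 and 0 CPM. In both genotypes it was higher in the libraries where MSTRG.5310 was at 0. In E112K clr6-1 it had 39.3, 37.5 and 37.6 CPM beside 4.70, 4.21 and 0 CPM, without that order. Taken alone it rose 3.25-fold (adjusted p = 2.22e-05) in E112K, and 3.89-fold (adjusted p = 3.58e-06) in E112K clr6-1 over WT. Their summed counts were 245, 254 and 191 in WT, 585, 621 and 744 in E112K, and 880, 733 and 648 in E112K clr6-1. Between E112K libraries the coefficient of variation was 30.7% for MSTRG.5309, 173% for MSTRG.5310 and 4.32% for the sum, a sum formed after its values were seen. The sum of all 5 loci labelled tlh1 was 30.9, 33.3 and 25.6 CPM in WT, 76.5, 73.7 and 77.4 CPM in E112K, and 217, 215 and 226 CPM in E112K clr6-1. That is a rise of 2.53-fold (adjusted p = 1.22e-09) and 7.31-fold (adjusted p = 2.87e-13) over WT, and of 2.89-fold between the mutants (adjusted p = 8.33e-11).

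The annotated helicase rows were also counted. The annotated tlh1 row (SPAC212.11) had 0 counts in every WT library, 33, 33 and 20 in E112K, and 0, 15 and 0 in E112K clr6-1. The tlh2 row (SPBCPT2R1.08c), on chromosome II in RefSeq, had 14.6 ± 0.942 in WT, 28.8 ± 2.77 in E112K and 15.0 ± 1.10 CPM in E112K clr6-1 (n = 3, SD), and it rose 1.98-fold in E112K (adjusted p = 3.41e-07) but did not pass in E112K clr6-1 against WT (adjusted p = 0.702). The summed loci labelled tlh1 thus stood highest in E112K clr6-1 and the annotated rows in E112K. The copies are near-identical, so how counts were divided among these rows is uncertain.

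The loci that fell were few. MSTRG.122, with no symbol, had the largest fall, from 44.9, 39.4 and 39.1 CPM in WT to 4.09, 3.82 and 4.97 CPM in E112K and 7.996, 9.45 and 8.999 CPM in E112K clr6-1. Both mutants lay far below WT, by -3.25 (SE 0.11, adjusted p = 1.74e-11) and -2.23 (SE 0.09, adjusted p = 1.25e-10) on the log2 scale, and E112K clr6-1 was 2.04-fold above E112K (adjusted p = 8.87e-06). MSTRG.364 had 45.8 ± 3.31, 27.8 ± 3.06 and 39.1 ± 1.13 CPM (SD, n = 3) and fell by 0.72 in E112K (adjusted p = 1.76e-06). Its fall of 0.23 in E112K clr6-1 (adjusted p = 0.011) was lost without WT replicate 2, at -0.17 (adjusted p = 0.056).

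MSTRG.4825, labelled SPCC569.03 after a protein of an uncharacterized family, fell in E112K clr6-1. It had 105, 99.8 and 95.7 CPM in WT, 99.6, 98.3 and 101 CPM in E112K, and 24.7, 26.4 and 24.1 CPM in E112K clr6-1. WT and E112K overlapped (log2 0.00, SE 0.04, adjusted p = 0.945), and E112K clr6-1 fell by 1.997 against WT (SE 0.05, adjusted p = 9.82e-13) and by 1.99 against E112K (adjusted p = 3.78e-12). MSTRG.3400, a low locus, had 3.42 ± 0.521 in WT, 5.96 ± 0.723 in E112K and 1.40 ± 0.474 CPM in E112K clr6-1 (n = 3, SD). It rose 1.74-fold in E112K (adjusted p = 0.00217) and fell by 1.28 in E112K clr6-1 (adjusted p = 0.000301), both against WT. MSTRG.1622 stood at 4.48 ± 0.515, 5.78 ± 0.933 and 3.27 ± 0.568 CPM and fell by 0.82 from E112K to E112K clr6-1 (adjusted p = 0.00105).

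The most abundant locus was MSTRG.4822, labelled ART2, a symbol with no entry in the reference. It had 909.5, 900.0 and 789 CPM in WT, 474, 421 and 501 CPM in E112K, and 539, 573 and 697 CPM in E112K clr6-1. It fell by 0.90 (SE 0.09, adjusted p = 1.07e-06) and 0.52 (adjusted p = 0.000112) on the log2 scale, and all WT libraries lay above all mutant libraries. MSTRG.4819, with the same label, had 23.4, 16.1 and 16.4 CPM in WT, 8.90, 6.71 and 8.34 CPM in E112K, and 23.0, 30.2 and 49.99 CPM in E112K clr6-1. It fell by 1.23 in E112K (SE 0.29, adjusted p = 0.00162), while E112K clr6-1 was 1.83-fold above WT with overlapping libraries (adjusted p = 0.00394). MSTRG.5875, with no symbol and a description as an actin fragment of another fungus, had 302, 278 and 285 CPM in WT, 191, 182 and 205 CPM in E112K, and 169, 179 and 188 CPM in E112K clr6-1. It fell by 0.58 (adjusted p = 2.06e-07) and 0.69 (adjusted p = 2.46e-08), and the mutants overlapped.

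Among the other abundant loci, a pair was lowest in E112K and highest in E112K clr6-1. MSTRG.941 had 65.1 ± 0.853, 53.4 ± 1.90 and 127 ± 4.03 CPM (SD, n = 3), falling by 0.29 in E112K (adjusted p = 3.54e-05) and rising 1.95-fold in E112K clr6-1 (adjusted p = 8.82e-11). MSTRG.2806 had 69.0 ± 3.98, 50.8 ± 3.29 and 89.2 ± 8.76 CPM, falling by 0.44 (adjusted p = 0.000115) and rising 1.29-fold (adjusted p = 0.0003). MSTRG.2023 and MSTRG.2693 rose in E112K and rose further in E112K clr6-1. MSTRG.2023 went from 57.4 ± 1.78 to 66.7 ± 2.14 and 95.4 ± 2.03 CPM, 1.16-fold (adjusted p = 0.000549) and 1.66-fold (adjusted p = 2.75e-09) over WT, and 1.43-fold between the mutants (adjusted p = 1.23e-07). MSTRG.2693 went from 36.9 ± 3.75 to 44.9 ± 0.351 and 54.8 ± 2.38 CPM, 1.22-fold (adjusted p = 0.00184) and 1.49-fold (adjusted p = 3e-06) over WT, and 1.22-fold between the mutants (adjusted p = 0.00129).

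MSTRG.5144 was labelled SPAC513.07, after a reductase of the flavonol and cinnamoyl-CoA reductase family. It had 36.2, 40.6 and 38.3 CPM in WT, 112.2, 113 and 111 CPM in E112K, and 147, 139.5 and 137 CPM in E112K clr6-1. It rose 2.92-fold (log2 1.55, SE 0.05, adjusted p = 6.72e-12) and 3.68-fold (log2 1.88, SE 0.05, adjusted p = 6.75e-13), with separate groups. The loci labelled SPBC460.01c, after an amino acid permease, also rose in both mutants. MSTRG.2682 had 27.8 ± 1.47, 61.6 ± 3.91 and 89.4 ± 2.38 CPM (SD, n = 3) and rose 2.21-fold (adjusted p = 1.38e-09) and 3.21-fold (adjusted p = 1.57e-11). MSTRG.2683 had 24.1 ± 3.64, 52.2 ± 2.97 and 50.9 ± 0.859 CPM, and its mutant groups overlapped (adjusted p = 0.667).

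For 3 further labels an annotated row stands beside the assembled one. The annotated mfs2 row (SPAC11D3.05) had 46.3 ± 1.41 in WT, 63.3 ± 3.27 in E112K and 35.5 ± 0.565 CPM in E112K clr6-1, rising 1.37-fold (adjusted p = 2.31e-06) and falling by 0.38 (adjusted p = 1.3e-05) where MSTRG.2657 rose in both. The annotated SPAC513.07 row fell, from 271 ± 14.1 to 193 ± 22.6 and 74.5 ± 6.04 CPM, by 0.49 (adjusted p = 3.74e-05) and 1.86 (adjusted p = 1.14e-10), where MSTRG.5144 rose. The annotated SPCC569.03 row had 43.1 ± 1.85, 109 ± 2.77 and 47.7 ± 1.61 CPM, rising 2.53-fold in E112K (adjusted p = 2.85e-11), where MSTRG.4825 had a log2 difference of 0.00. The difference between the rows' changes was not tested.

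**Figure D4:**
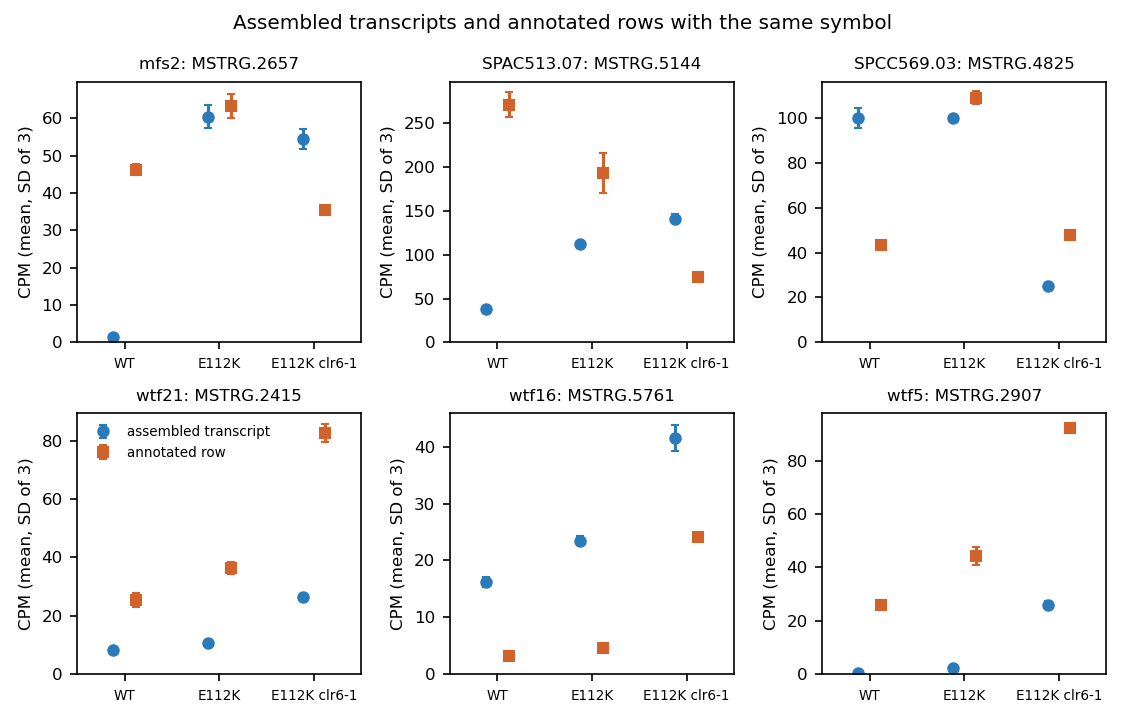
Mean CPM with SD over 3 libraries, by genotype, of 6 assembled transcripts (circles) and of the annotated row with the same symbol (squares); each panel has its own linear axis from 0, and CPM is not scaled by length. For SPAC513.07 the assembled transcript rises from 38.4 to 141 CPM while the annotated row falls from 271 to 74.5 CPM, and for wtf21, wtf16 and wtf5 both rows are highest in E112K clr6-1.

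The counts and FPKM together give a length for each row, the transcript length in bases that turns one into the other. It ran from 297 to 8122 with a median of 1360 for the assembled transcripts, against 1814 for the annotated rows. MSTRG.2657 had 2964 where the annotated mfs2 row had 2013, MSTRG.5144 had 4079 beside 1759, and MSTRG.4825 had 3179 beside 1526. A row counted over 1 fixed transcript has the same length in every library. The length varied by over 5% between libraries in 7 of 73 assembled transcripts (9.59%) and in 1 of 5032 annotated rows (0.0199%).

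The widest variation was in MSTRG.5302, where the length was 7763, 6855 and 8313 in WT, 5012, 5564 and 4695 in E112K, and 2798, 2809 and 2725 in E112K clr6-1. For this locus the authors' deposited table, which compares FPKM, gives a 4.55-fold rise in E112K and a 43.6-fold rise in E112K clr6-1, where the counts gave 3.16-fold and 16.7-fold. MSTRG.4819 had lengths of 3157 ± 184, 2880 ± 169 and 4588 ± 715 (SD, n = 3), and its log2 difference between E112K clr6-1 and WT was 0.87 from counts and 0.29 in the authors' deposited table. The others were MSTRG.941, MSTRG.2415, MSTRG.2665, MSTRG.2907 and MSTRG.5309.

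**Figure D5:**
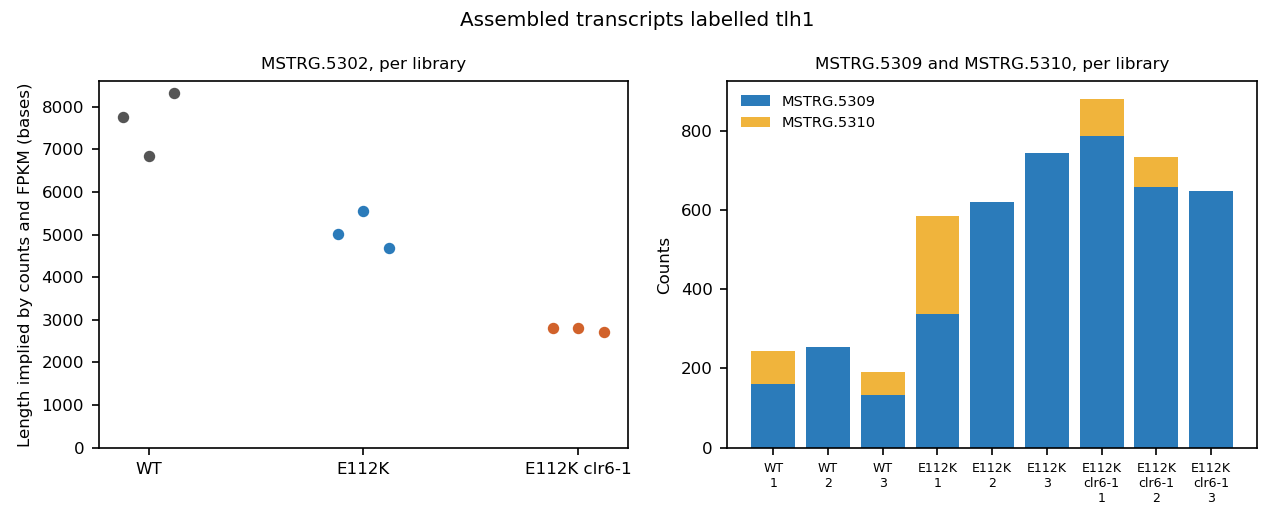
Left, length in bases implied by counts and FPKM for MSTRG.5302, 1 point per library by genotype; right, stacked counts of MSTRG.5309 and MSTRG.5310 in each library, with bars from 0. The implied length is 6855 to 8313 in WT and 2725 to 2809 in E112K clr6-1, and MSTRG.5310 is at 0 in 4 of the 9 libraries while the stacked counts are 191 to 254 (WT), 585 to 744 (E112K) and 648 to 880 (E112K clr6-1).

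The remaining loci with GO text or a description but no symbol were low. MSTRG.2095, listed under lipopolysaccharide biosynthesis, had 2.09 ± 0.392, 5.82 ± 1.01 and 5.37 ± 0.618 CPM (SD, n = 3) and rose 2.79-fold (adjusted p = 1.55e-05) and 2.58-fold (adjusted p = 2.71e-05). MSTRG.2851, described as a very hypothetical protein, had 7.03 ± 0.523, 8.33 ± 0.967 and 13.0 ± 0.8 CPM and rose 1.86-fold in E112K clr6-1 (adjusted p = 5.58e-06), while E112K did not pass (adjusted p = 0.0683) except without E112K replicate 1 (adjusted p = 0.0212). In the fit of all 9 libraries without a replicate block, MSTRG.993 and MSTRG.5758 passed no comparison. Their smallest adjusted p-values there were 0.102 for MSTRG.993, in E112K clr6-1 against WT, and 0.058 for MSTRG.5758, between the mutants. Between the mutants MSTRG.993 passed without E112K replicate 1 (adjusted p = 0.029). MSTRG.5758 passed there with the replicate block (adjusted p = 0.0434), and without E112K replicate 3 (adjusted p = 0.018) or E112K clr6-1 replicate 2 (adjusted p = 0.0209). The 38 loci not named by the rule had mean levels from 0.313 to 43.6 CPM, with a median of 2.79 CPM, and 35 were tested. Of these 24 were higher and 0 lower in E112K, where 37.6% and 38.9% of all genes were, with log2 differences from -2.18 to 3.60. Against WT, E112K clr6-1 had 24 higher and 2 lower, where 41.7% and 42% of all genes were, from -1.01 to 4.50. Between the mutants 12 were higher, 9 lower and 14 not called, where 40.2% of all genes were higher and 38.6% lower, from -1.55 to 4.88.

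The libraries held 16469576 to 20013351 counts each. Transcripts of htb1 stood at 1669 ± 42.98 in WT, 5131 ± 127 in E112K and 5435 ± 119 CPM in E112K clr6-1 (n = 3, SD), and those of clr6 at 142 ± 7.08, 87.1 ± 1.77 and 119 ± 1.47 CPM. The htb1 level was thus 3.07-fold above WT in E112K and 3.26-fold above WT in E112K clr6-1. The mutants differ from WT in this level as well as by their labels, and its part in the differences was not tested. No read of WT or E112K fell on the marker gene ura4 (0 counts), which stood at 145 ± 1.93 CPM in E112K clr6-1. The labels do not mention this gene, and its part in the differences of E112K clr6-1 was not tested.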

How the data were processed

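Poly(A) RNA of 9 libraries in 3 groups of 3 was analysed, and groups were taken from the labels alone. Tools listed in the submitters' processing notes, with no versions or roles, are StringTie, HISAT2, Bowtie2, fastp, RSEM and DESeq2. The deposited tables hold, per the file headers, whole-number counts and FPKM per row and library, and the authors' log2 fold changes and p-value and FDR columns. If the counts came from RSEM, they are rounded estimates. In WT replicate 1 MSTRG.2908 had 0 counts beside an FPKM of 0.019, so a count of 0 need not be an exact 0. Per-sample columns without a sample numbered 0.

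Counts of all 5212 rows were fitted with edgeR 4.0.16 in R 4.3.3 (quasi-likelihood test, TMM factors from 0.987 to 1.025, filterByExpr, 1 fit for all libraries), and an adjusted p under 0.05 over 5119 rows was a call. FPKM was used for levels per length and, with counts, for implied lengths in libraries with at least 20 counts. Separate cultures are not stated in the labels, so that p-values reflect the spread among these libraries alone, which may be technical. Replicates differed beyond counting noise (chi-square per degree of freedom 2.96 to 9.70).

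Members, gene lists and tests were chosen with earlier results of these data known. Named are the 10 most abundant members, for each comparison up to 6 largest rises and 6 largest falls among calls without overlap and with at least 5 CPM in the higher group, members with a symbol, description or GO text, and members at 0 throughout a group, of which there were none; 38 were named. Outside the members, the rule names htb1, clr6, ura4 and annotated rows tied to a member. Alternatives were DESeq2 1.42.0, its size factors in edgeR, no count filter, a 2-fold threshold, fits of 2 groups, a replicate block, FPKM shares and leaving out each library, and sums over loci with 1 symbol were added after seeing the data. No sequence was printed, because the files give none for these loci.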

Additional observations from a re-analysis of the deposited data

How the results depend on the processing

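With DESeq2, its size factors in edgeR, no count filter, fits of the 2 groups compared, the replicate block and each library left out, the calls ranged from 44 to 48 higher and 7 to 8 lower in E112K against WT, from 51 to 53 and 5 to 10 in E112K clr6-1 against WT, and from 31 to 33 and 16 to 20 between the mutants. The lower calls of E112K clr6-1 against WT were 5 without WT replicate 2 and 9 with it. Requiring 2-fold left 30 higher and 2 lower, 39 and 4, and 16 and 7. Leaving out each library gave 44 to 48 higher and 7 to 8 lower in E112K, 51 to 52 and 5 to 10 in E112K clr6-1, and 31 to 33 and 16 to 18 between the mutants. Median log2 differences then ran from 0.69 to 0.83, from 1.04 to 1.27 and from 0.01 to 0.14, and shares of counts from 0.201 to 0.213%, 0.199 to 0.207% and 0.247 to 0.255% in WT, E112K and E112K clr6-1. The median in E112K clr6-1 against WT was 1.18 with DESeq2 and 1.18 with no filter, where 76 loci were tested. As a percent of summed FPKM the class took 0.135, 0.167 and 0.193, and without MSTRG.4822, an alternative chosen after seeing the data, 0.117, 0.157 and 0.192% of counts. Over single loci 2 results reversed, both in MSTRG.5310: without single libraries its log2 difference ran from -8.52 to 1.62 in E112K against WT and from -1.30 to 8.81 between the mutants, with the extremes when E112K replicate 1, its highest library, was left out, and both then passed (adjusted p = 0.0367 and 0.0242). That setting leaves E112K at 0 counts of this locus in both remaining libraries, so these fitted values have no firm size. The call of MSTRG.1622 in E112K clr6-1 against WT (adjusted p = 0.0414) was lost under 6 alternatives, at adjusted p-values of 0.0519 to 0.145. In the fall of MSTRG.2657 between the mutants (-0.15, adjusted p = 0.0559) 5 alternatives gave a call. Of the other results for named loci, those that changed their call did so for MSTRG.364, MSTRG.993, MSTRG.1622, MSTRG.1765, MSTRG.2851, MSTRG.5758 and MSTRG.5875, and over all named loci 1565 values kept their side of the threshold, 14 gained a call and 12 lost one.

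Replicate numbers did not pair the libraries (correlations of same-numbered libraries from -0.172 to 0.184). With the replicate block, calls were 46 higher and 7 lower, 52 and 8, and 33 and 20 for the comparisons in the order above, with medians of 0.72, 1.27 and 0.04. Low counts limit most of these loci, and those at a few counts in WT have no firm fold change.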
